A study of Caenorhabditis elegans with 18 samples.

Results

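The glutathione transferase (gst) genes of Caenorhabditis elegans were followed in whole animals hatching with or without food. Members were the genes whose name in WormBase release 180 is gst followed by a number and whose probe set maps to a single gene, with the brightest probe set kept for each gene. This gave 41 genes on 43 probe sets, of 17603 uniquely mapped genes and 22548 worm probe sets. All 41 names matched the RefSeq gene table, which lists 44 such genes; gst-34, gst-35 and gst-37 were not analysed here. Levels of different genes come from different probe sets and are not set against each other. For 7 members (gst-9, gst-16, gst-19, gst-20, gst-27, gst-33 and gst-41) the probe set is of the type that can pick up near copies, so their values are uncertain in this respect.

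Messenger RNA of the wild-type strain N2 was measured on 1-colour Affymetrix arrays, and the deposited value of a condition is the authors' mean of 3 arrays. All larvae were cultured at 20 °C in the buffered medium S-complete, except for 1 condition in the simpler buffer M9. Fed larvae had the bacterium Escherichia coli HB101 at 25 mg per ml from hatching on, and starved larvae had none. Both were collected at 0, 1, 3, 6, 12, 15 and 24 h, counted from the time when 50% had hatched. Starved larvae stay in the first larval stage (L1 arrest), whereas fed larvae are labelled as between L1 and L2 at 15 h and as L2 at 24 h, so stage differs with food there. The remaining conditions were embryos 2 h before hatching, starved larvae in M9 at 3 h, larvae given food for 3 h once 12 h had passed without it (refed), and larvae kept without food for 3 h once 12 h had passed with it (food removed). Each culture of 10 ml held 10000 larvae.

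Glutathione transferases join the small peptide glutathione to reactive compounds, which makes these compounds less harmful and lets export pumps carry the conjugates out of the cell. Nematodes have a much enlarged family of these enzymes, and several members are known to be switched on in the intestine and epidermis by the stress regulator SKN-1, which the repressor WDR-23 holds in check. The gene gst-4 is the usual reporter of that response, and gst-10 is known for conjugating hydroxynonenal, a toxic product of lipid peroxidation.

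The authors called a probe set detected when its signal stood out from background at a p under 1e-10. By this call 18 members were detected in all 18 conditions, 14 in some and 9 in none (gst-8, gst-17, gst-18, gst-25, gst-30, gst-31, gst-32, gst-33 and gst-44). The number of members detected was 23 in embryos, 30 in starved and 30 in fed larvae at 0 h, 32 in starved larvae at 1 h, 27 in starved larvae at 24 h and 20 in fed larvae at 24 h. Over all probe sets, 10873 to 12332 were detected per condition and the median intensity was 35.1 to 41.2. The lowest intensity called detected was 19.4 to 23.6, depending on the condition. Since whole animals were used, fewer cells of a type and less RNA per cell cannot be told apart in any of the results. Arrays of starved S-complete larvae and embryos were hybridized on 3 days, those of fed and M9 larvae on 3 other days, and those of refed and food-removed larvae on 1 further day. In fed minus starved differences the hybridization day and food cannot be told apart.

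**Figure D1:**
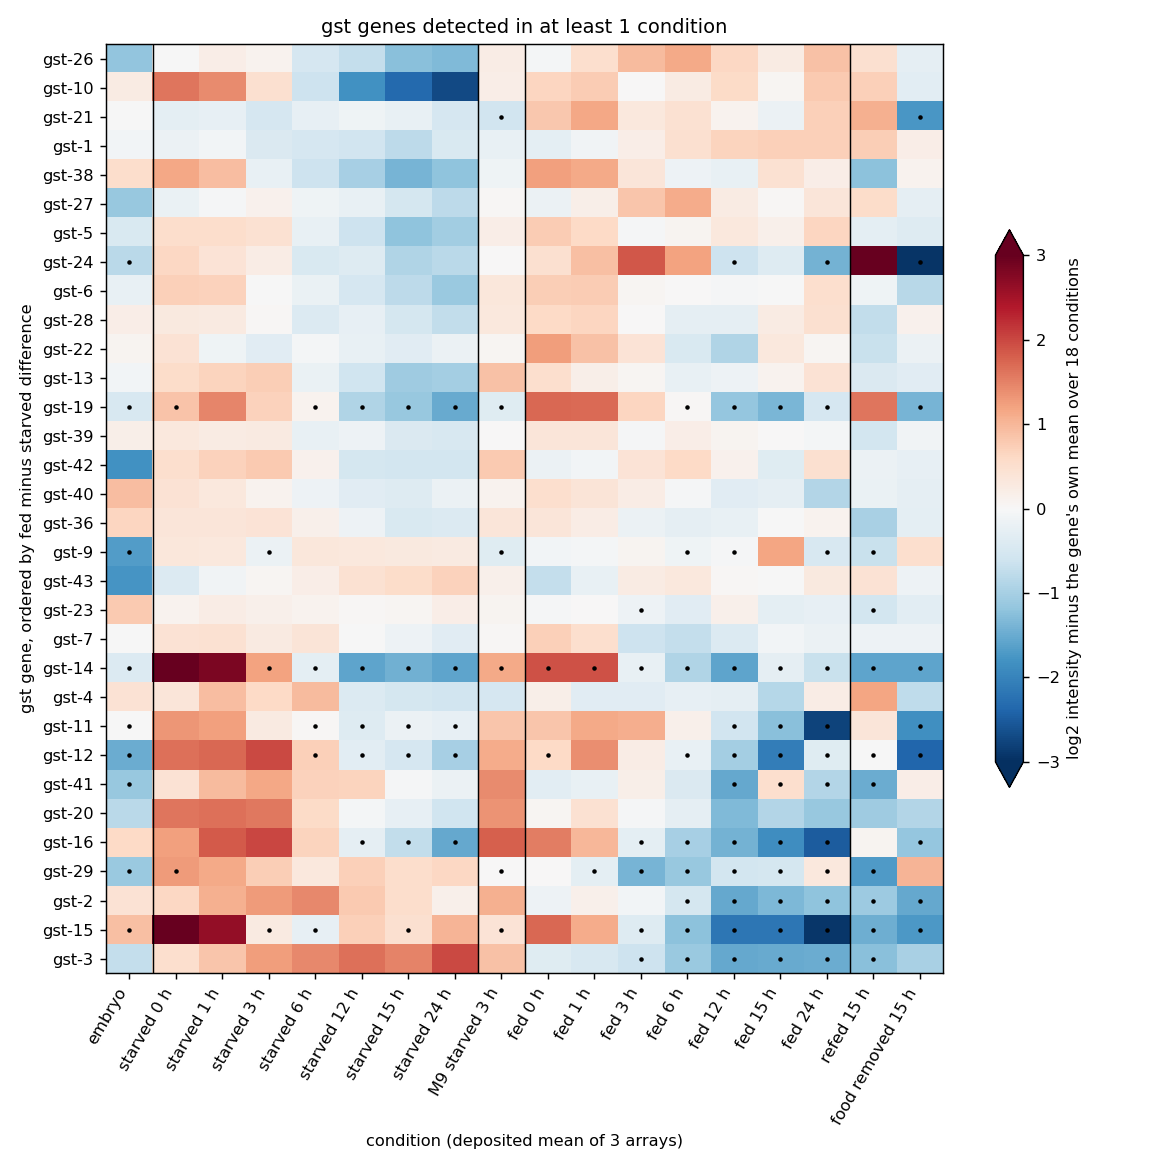
Log2 intensity of the 32 gst genes detected in at least 1 condition, each minus its own mean over 18 conditions, by condition. Rows run from genes higher in fed larvae (gst-26, top) to genes lower in fed larvae (gst-3, bottom), and a black dot marks a condition in which the gene was not detected. The colour scale ends at 3 and -3, beyond which values take the end colour.

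Over the 7 matched times, 14 of 41 members (34.1%) differed between fed and starved larvae, 6 higher and 8 lower with food. The fit was limma on log2 means with time as a factor, and its adjusted p was required to be under 0.05. Of all worm probe sets, 30.3% were called by the same rule (13.5% higher and 16.8% lower), so the share of members called was near the background. The median difference of the 41 members was -0.08 on the log2 scale and that of all probe sets was 0. The spread in this fit is the change of the food difference from time to time, not array error. Members split in both directions, and where the lower level was not detected the log2 difference is only approximate.

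Among the members lower in fed larvae, gst-3 had the largest difference. Its intensity in starved larvae was 81.5 (lowest), 155 (median) and 224 (highest) over the 7 times, and in fed larvae it was 19.7, 26.3 and 44.6 in the same order. The fed values all lay below the starved ones, and the gene was not detected at 5 of the 7 fed times. The difference was -2.32 ± 0.35 log2 (SE; limma adjusted p = 0.00514). Its neighbour gst-2 had starved values of 30.8, 47.4 and 75.5 and fed values of 9.5, 19.4 and 30.9, and was not detected at 4 of the 7 fed times. Its difference was -1.51 ± 0.20 (limma adjusted p = 0.00352). The starved and fed ranges of gst-2 overlapped at their ends only, although at each matched time the fed value was the lower one. Both genes lie in a group with gst-4 on chromosome IV. In gst-4 the fed value was lower at 5 of 7 times and the difference was -0.42 ± 0.27 (limma adjusted p = 0.273).

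A further 3 members with lower levels in fed larvae, gst-15, gst-16 and gst-20, belong to a run of 9 neighbouring gst genes on chromosome II, in which no more than 3 other genes separate neighbours. Starved larvae had gst-20 at 330.4, 742 and 1556 (lowest, median, highest) and fed larvae at 198, 413 and 686, a difference of -1.09 ± 0.15 log2 (limma adjusted p = 0.004). The fed value was below the starved value at all 7 times, while the 2 ranges overlapped. For gst-15 the starved values were 32.1, 63 and 316, the fed values were 5, 16.4 and 126, and the difference was -2.0 ± 0.42 (limma adjusted p = 0.0147). It was detected at 4 starved and 2 fed times only, the fed ones being 0 and 1 h. For gst-16 the starved values were 15.3, 70.8 and 177, the fed values were 7.87, 22.3 and 127, and the difference was -1.11 ± 0.28 (limma adjusted p = 0.0258). At 0 h gst-16 was slightly higher with food (127 against 105), and at the other 6 times it was lower.

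The remaining members called lower were gst-29, gst-23 and gst-32. On another stretch of chromosome II, gst-29 had starved values of 53.3, 70.2 and 104 and fed values of 16.3, 29.7 and 52.9, and differed by -1.27 ± 0.19 (limma adjusted p = 0.00515). The 2 ranges came close without overlapping, and the gene was detected at 6 starved times and 1 fed time. The starved time without detection was 0 h, which had the highest starved value, and the fed time with detection was also 0 h. The difference of gst-23 was small at -0.25 ± 0.07 (limma adjusted p = 0.0444). At 12 h alone its fed value was the higher one, and how its call depends on single times is not given here. For gst-32 the difference was -0.71 ± 0.15, but this gene was detected nowhere and its highest value was 18.4, so no fold is given.

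**Figure D2:**
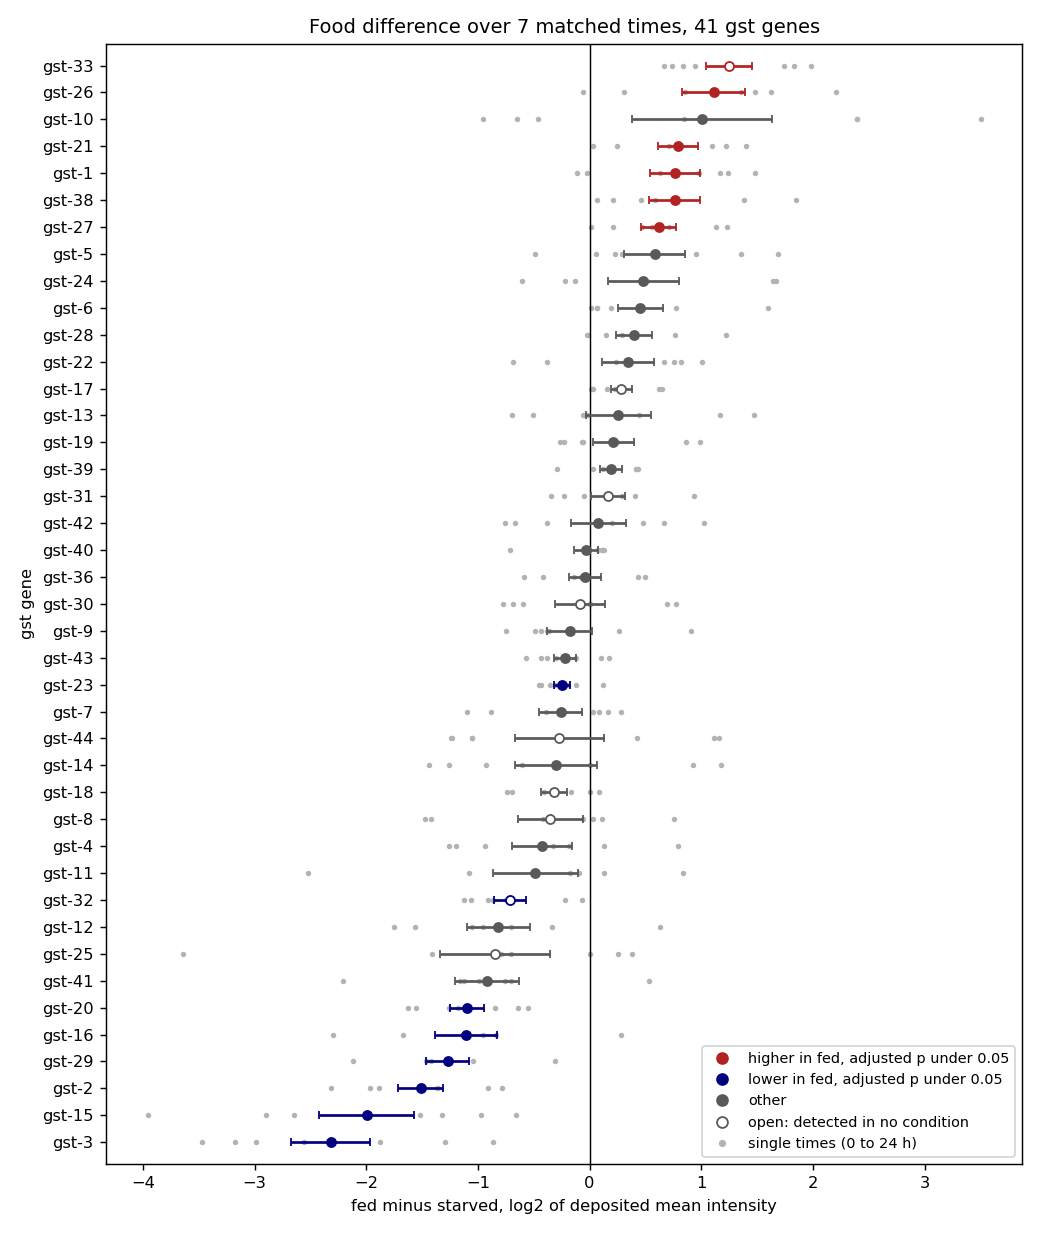
Fed minus starved difference in log2 intensity for all 41 gst genes from the limma fit over 7 times, with its standard error as a bar; small grey points are the differences at single times. Red and blue mark the 6 genes higher and 8 lower with food at an adjusted p under 0.05, and open symbols mark the 9 genes detected in no condition.

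Of the 6 members higher in fed larvae, gst-26 and gst-27 are neighbours on chromosome II in the same stretch as gst-29. Fed larvae had gst-26 at 309, 500.3 and 707 (lowest, median, highest) and starved larvae at 129, 229.8 and 370.0, a difference of 1.11 ± 0.28 log2 (limma adjusted p = 0.0252). For gst-27 fed larvae had 517, 693 and 1266, starved larvae had 344, 513 and 639.8, and the difference was 0.62 ± 0.16 (limma adjusted p = 0.0273). Both peaked at 6 h in fed larvae, and in both the fed and starved courses began together. At 0 h gst-27 was 517 ± 81.1 with food and 513 ± 37.9 without. With an intensity, the value after ± is the authors' deposited error, whose type is not stated.

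The pi-class transferase gst-1, known from worms for limiting the loss of dopamine neurons under manganese, was higher in fed larvae by 0.77 ± 0.22 log2 (limma adjusted p = 0.0401). Its fed values were 316, 541 and 636 and its starved values 226, 283 and 366. At 0 and 1 h the fed value was slightly the lower one, and from 3 h on it was the higher one. Fed larvae also had more gst-21, with values of 62.7, 97.9 and 159 against 50.4, 59.7 and 64.9 and a difference of 0.79 ± 0.18 (limma adjusted p = 0.0182), and more gst-38, which differed by 0.76 ± 0.23 (limma adjusted p = 0.0437). In both genes the fed value was higher at all 7 times. The remaining higher member, gst-33, was not detected in any condition, so its size is not given here: its highest value was 93.5 ± 31.2 in fed larvae at 1 h.

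These calls differ in how much they rest on single times. With 1 time left out in turn, 8 to 14 members were called, the fewest without 6 h (8), 12 h (9) and 15 h (9). The calls of gst-2, gst-3, gst-21 and gst-29 stood under all 7 of these fits and 5 other settings, and those of gst-32 and gst-33 under all that could be run for genes without detection. The call of gst-1 was lost without 3, 6, 12, 15 or 24 h (limma adjusted p = 0.0769 to 0.0984), that of gst-27 without the same times (0.0565 to 0.0655), and that of gst-26 without 3, 6, 12 or 15 h (0.0520 to 0.0658). Likewise gst-16 was lost without 6, 12, 15 or 24 h (0.0541 to 0.0656) and gst-38 without any time but 0 h (0.0528 to 0.0994). With no time factor gst-15 and gst-20 had limma adjusted p of 0.0766 and 0.0770. The food term of the authors' 2-factor analysis of variance, taken from the authors' deposited table and adjusted here, called 38 of the 40 members it holds, 16 higher and 22 lower, against 68.9% of all probe sets, 34.6% higher and 34.1% lower.

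The food difference changed with time in 5 members. As a slope on log2(h + 1), the change of the fed minus starved log2 difference per doubling of h + 1, limma called gst-1, gst-3, gst-10, gst-26 and gst-42, which is 12.2% of the members against 5.38% of all probe sets (2.14% with a positive and 3.24% with a negative slope). The steepest was gst-10, whose slope was 1.01 ± 0.126 (limma adjusted p = 0.0201). In starved larvae gst-10 went from 1379.5 ± 112 at 0 h to 633 ± 45.6 at 3 h, 129 ± 15.6 at 12 h and 68.9 ± 11 at 24 h, and each later value was lower than the one before. In fed larvae it stayed between 459.8 and 781. Fed larvae thus had the lower value up to 3 h and the higher one from 6 h, and the average over times, 1.01 ± 0.63, missed the threshold (limma adjusted p = 0.268). A second probe set of gst-10 gave a slope of 0.897 ± 0.129 (limma adjusted p = 0.0255).

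The slopes of gst-26 (0.446 ± 0.0595), gst-42 (0.374 ± 0.0713) and gst-1 (0.353 ± 0.0501) were also positive, with limma adjusted p of 0.0225, 0.045 and 0.0247. The gene gst-42 encodes the zeta-class enzyme maleylacetoacetate isomerase, which acts in tyrosine breakdown. It was lower with food at 0 h (355 ± 35.1 against 564 ± 62.8) and higher with food at 24 h (556 ± 36.8 against 273 ± 22.2), and its difference over the 7 times was 0.08 ± 0.25 (limma adjusted p = 0.861). The slope of gst-3 was negative, -0.583 ± 0.0343 (limma adjusted p = 0.00589): starved values went from 81.5 at 0 h to 224 at 24 h, while fed values went from 44.6 to 20.2. In fed larvae gst-3 was not detected from 3 h on, so the size of its slope is only approximate. With 1 time left out 1 to 4 members were past the threshold: 1 without 1 h, 2 without 0 h or 24 h, 3 without 12 h and 4 otherwise. Of the 5 members, gst-3 was past it in each of these fits. The call of gst-10 was lost without 1 h (limma adjusted p = 0.0924) or 24 h (0.0716), that of gst-26 without 0, 1 or 24 h (0.0807 to 0.101), that of gst-1 without 0, 1, 12 or 15 h (0.0503 to 0.0981), and that of gst-42 without any time but 15 h (0.0615 to 0.150).

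**Figure D3:**
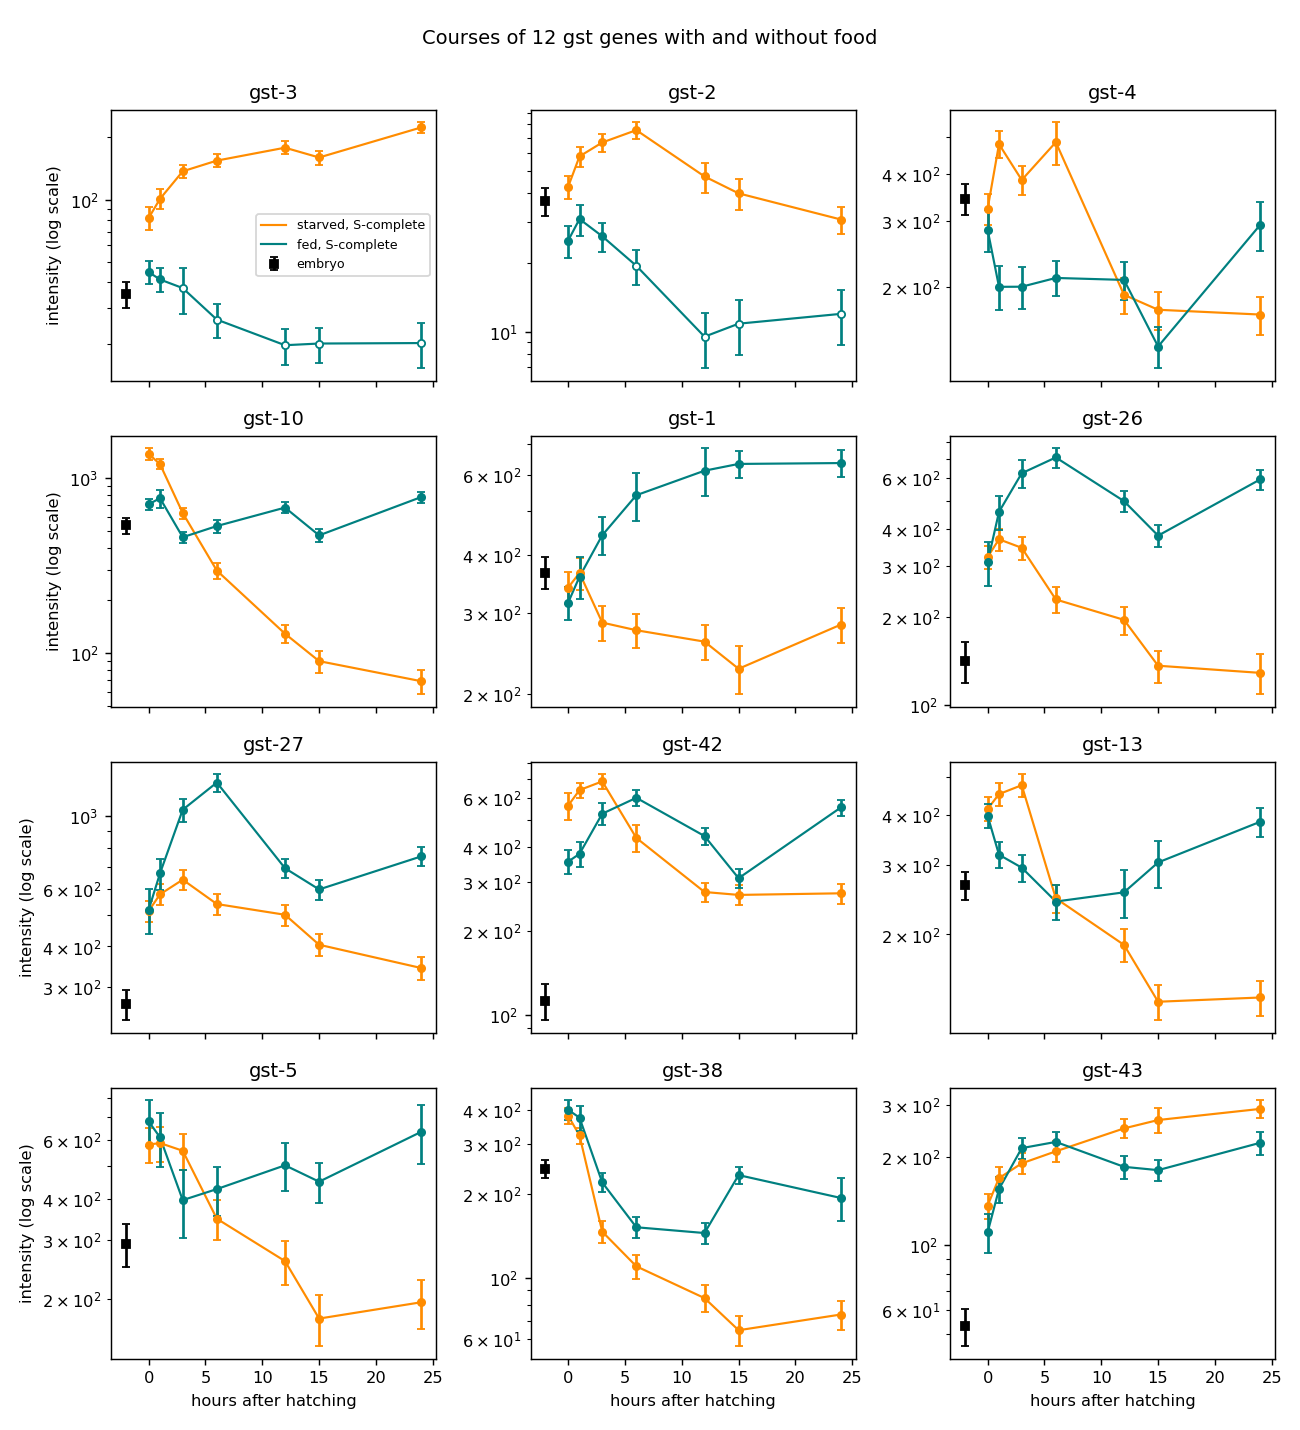
Intensity (log axis) against hours after hatching for 12 gst genes in starved (orange) and fed (teal) larvae, with the embryo (square) at 2 h before hatching; bars are the authors' deposited errors and open symbols mark conditions without detection. The curves of gst-3 and gst-2 lie apart throughout, those of gst-10, gst-42 and gst-13 cross, and those of gst-1, gst-26 and gst-27 start close together and part later.

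At single times the authors' p-value for the pair of conditions was used, adjusted here over all probe sets. At 0, 1, 3 and 6 h no member passed, against 0%, 0.00443%, 1.03% and 1.56% of all probe sets. In the higher and lower direction these were 0.417% and 0.612% at 3 h and 0.763% and 0.798% at 6 h. At an unadjusted p under 0.05 in the authors' deposited table there were 3, 7, 15 and 14 members at these times, against 6.3%, 14.3%, 21.5% and 23.5% of all probe sets, and a test from the deposited errors called 0 at each. At 12 h 7 members passed (17.1%, against 9.89% of all probe sets, 4.59% higher and 5.3% lower). At 15 h 2 passed (4.88%, against 4.69% of all probe sets, 2.19% higher and 2.5% lower) and at 24 h 6 (14.6%, against 7.78% of all probe sets, 3.87% higher and 3.91% lower). The lower members at 12 h were gst-2, gst-3, gst-29 and gst-41, and the higher ones were gst-10, gst-26 and gst-42. By then gst-3 was 178 ± 12.8 in starved larvae and 19.7 ± 3.89, not detected, in fed larvae, about 8.77-fold lower (adjusted p = 0.0171 from the authors' deposited table). Where the dim level was not detected, a fold sets the brighter mean against the higher of the dim value and the lowest detected intensity of that condition. Such a fold is approximate and not a strict bound, because values above that intensity can also go undetected. For example, gst-12 was not detected at 85.7 in starved larvae at 6 h. For gst-10 the fed and starved values were 679.6 ± 48.3 and 129 ± 15.6 (5.27-fold higher, adjusted p = 0.0254 from the authors' deposited table). For gst-2, not detected with food, they were 9.5 ± 2.59 and 47.4 ± 7.06 (about 2.33-fold lower, adjusted p = 0.0394 from the authors' deposited table). With food gst-41 was 18.6 ± 5.51, not detected, against 85.8 ± 11.5 without (about 4.22-fold lower, adjusted p = 0.0123 from the authors' deposited table). By the test from the deposited errors gst-2 and gst-41 missed the threshold at 12 h, with adjusted p of 0.0606 and 0.0560.

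At 15 h gst-10 (471 ± 41.2 with food, 89.8 ± 12.7 without; adjusted p = 0.0293) and gst-26 (381 ± 33.5 and 136 ± 17.2; adjusted p = 0.0446) passed in the authors' deposited table, both higher with food. By the test from the deposited errors gst-26 had an adjusted p of 0.0580 there. At 24 h all 6 called members were higher in fed larvae, which are L2 by then: gst-1, gst-10, gst-13, gst-26, gst-27 and gst-42. The largest was gst-10, 781 ± 57.7 with food and 68.9 ± 11 without, 11.3-fold higher (adjusted p = 0.013 from the authors' deposited table). Next came gst-26 with 595 ± 46.6 and 129 ± 20.1 (4.62-fold; adjusted p = 0.0485, authors' deposited table) and gst-13 with 385 ± 32 and 139 ± 14.1 (2.78-fold; adjusted p = 0.0422, authors' deposited table). For gst-1 the values were 636 ± 44 and 283 ± 24.5 (2.25-fold; adjusted p = 0.0325, authors' deposited table). At 24 h gst-3 was 224 ± 13.9 without food and 20.2 ± 4.97, not detected, with it, but its adjusted p was 0.0573 from the authors' deposited table.

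Within the starved course, whose arrays share their hybridization days, most members ended lower than they began. From 0 to 24 h 36 of 41 members had a negative log2 difference, the median was -0.77, and that of all probe sets was 0. The test from the deposited errors (4 degrees of freedom, used because the deposited table lacks this pair) called 5 members lower and 1 higher, 14.6% of members against 3.32% of all probe sets, 1.77% higher and 1.55% lower. It takes the deposited error, whose type is not stated, as a standard error. Besides gst-10 (20-fold lower, adjusted p = 0.0406), the level of gst-14 fell from 134 ± 14.5 to the floor of 5, about 6.29-fold lower (adjusted p = 0.0437). That of gst-38 fell from 380.3 ± 23.8 to 73.7 ± 8.69 (adjusted p = 0.0406) and that of gst-20 from 1514 ± 105 to 330.4 ± 36 (adjusted p = 0.0415). The fifth, gst-13, fell 2.99-fold. Only gst-3 was called higher, 2.75-fold (adjusted p = 0.0449). The value of gst-43 also ended higher, 292 ± 21 against 137 ± 13.3 (adjusted p = 0.0638).

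In fed larvae 31 of 41 members had a lower value at 24 h than at 0 h, and the median was -0.58, against 0 for all probe sets. The test from the deposited errors called 0 members and 0% of probe sets here, with 4 members higher and 12 lower at an unadjusted p under 0.05, against 24.9% of all probe sets. Several dim members were lost from detection in fed larvae: gst-11 went from 61 ± 9.35 and gst-15 from 126 ± 28 at 0 h to the floor of 5 at 24 h, and gst-16 from 127 ± 21.2 to 7.87 ± 4.42. With food gst-1 was 316 ± 26.4 at 0 h and 636 ± 44 at 24 h, and each of its values was higher than the one before (unadjusted p = 0.00335 from 0 to 24 h, test from the deposited errors).

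Around hatching, levels of many members were higher in larvae than in embryos. From the embryo to starved larvae at 0 h 34 of 41 members had a positive log2 difference, with a median of 0.85, and to fed larvae at 0 h 35 did, with a median of 0.87, while the median of all probe sets was 0 in both; the embryo is shared by both comparisons, and only starved larvae share its hybridization days. The authors' p called 2 members higher in starved larvae and none lower (4.88%, against 2.4% of all probe sets, 1.15% higher and 1.25% lower). The level of gst-14 rose from 11.3 ± 4.47, not detected, to 134 ± 14.5, about 6.8-fold (adjusted p = 0.0367 from the authors' deposited table). That of gst-12 rose from 18.6 ± 7.9, not detected, to 162 ± 23.7, about 8.21-fold (adjusted p = 0.041 from the authors' deposited table). For gst-12 the test from the deposited errors gave an adjusted p of 0.0610, so its call rests on the choice of test. Unadjusted, 17 members were higher and 1, gst-40, was lower, against 25.4% of all probe sets. Large differences in value that missed the threshold were those of gst-20, from 282 ± 33.4 to 1514 ± 105 (adjusted p = 0.081, authors' deposited table), and gst-42, from 112 ± 16.5 to 564 ± 62.8 (adjusted p = 0.0636, authors' deposited table). For fed larvae at 0 h against the embryo the authors' p called 0 members and 0% of probe sets, with 10 members higher and 0 lower unadjusted (against 16.2% of all probe sets), and the test from the deposited errors also called 0.

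The run of 9 neighbours on chromosome II (gst-12, gst-14 to gst-20 and gst-24) holds both genes called at hatching by the authors' p. Of the 9, 2 were detected in embryos, 6 in starved larvae at 0 h, 3 in starved larvae at 24 h and 1, gst-20, in fed larvae at 24 h. With food, gst-14 was never detected, and gst-17 and gst-18 were detected nowhere. By contrast gst-24, which has been linked to hydroxynonenal conjugation in worms, had its highest fed value at 3 h, 414 ± 40.7, when starved larvae had 132 ± 17.9 (adjusted p = 0.0845 from the authors' deposited table). By 24 h it was 42.9 ± 9.78, not detected, with food and 65.2 ± 12.1 without.

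**Figure D4:**
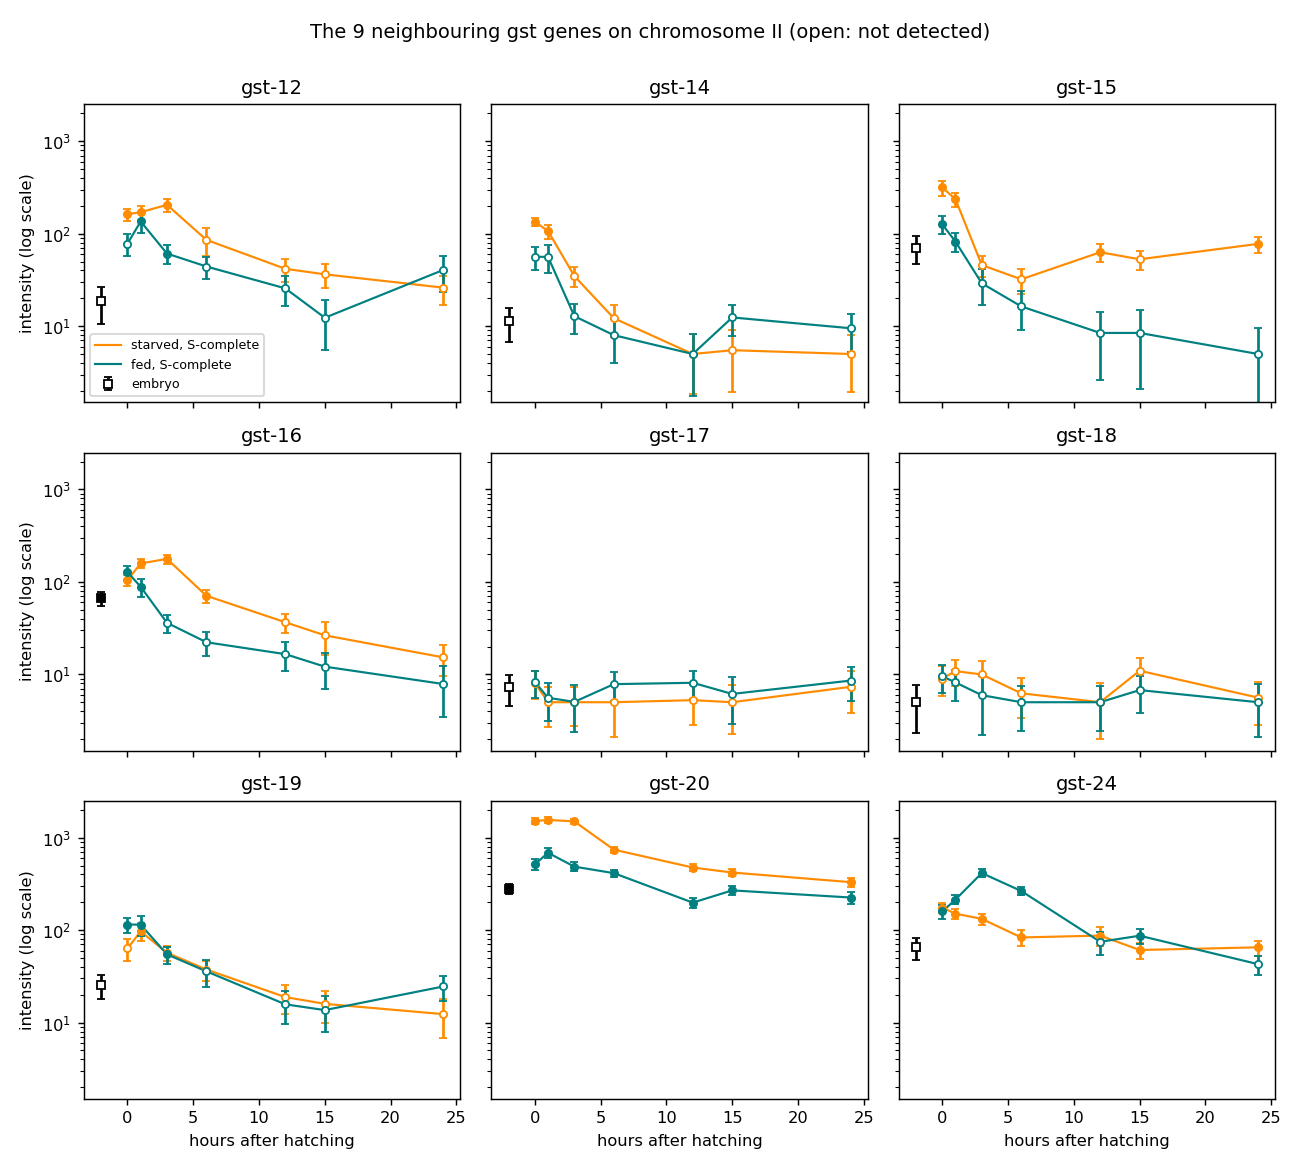
Intensity (shared log axis) against hours after hatching for the 9 neighbouring gst genes on chromosome II in starved (orange) and fed (teal) larvae and in embryos (square); bars are the authors' deposited errors and open symbols mark conditions without detection. The values of gst-12, gst-14, gst-15, gst-16 and gst-20 are highest between 0 and 3 h, gst-24 alone peaks at 3 h with food, and gst-17 and gst-18 stay low without detection.

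Giving food to arrested larvae was followed by large differences in a few members. Their arrays were hybridized on another day than those of starved larvae, so the day and refeeding cannot be told apart here. Compared with larvae starved for 15 h, refed larvae passed the threshold in 3 members, 2 higher and 1 lower (7.32%, against 2.04% of all probe sets, 0.878% higher and 1.16% lower). The level of gst-24 was 920.0 ± 69.6 after refeeding and 61 ± 11.7 without, 15.1-fold higher (adjusted p = 0.0362 from the authors' deposited table), and no other condition had a value of gst-24 above 414. That of gst-10 was 748 ± 55.9 against 89.8 ± 12.7, 8.34-fold higher (adjusted p = 0.0371 from the authors' deposited table). In the opposite direction gst-3 was at 24 ± 4.22, not detected, against 160.0 ± 12.5, about 6.68-fold lower (adjusted p = 0.0371 from the authors' deposited table). Against larvae starved for 12 h, the state from which refeeding began, only gst-3 passed (2.44%, against 3.21% of all probe sets, 1.36% higher and 1.85% lower), with an adjusted p of 0.0353, while gst-10 and gst-24 had 0.0518 and 0.0639 (authors' deposited table).

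Several members with large differences missed the threshold on refeeding. The value of gst-4 was 574 ± 45.3 in refed larvae and 174 ± 19.9 in those starved for 15 h (adjusted p = 0.0622, authors' deposited table), and the refed value was the highest of its 18. That of gst-19 was 106 ± 15.2 against 16 ± 6.09, not detected (adjusted p = 0.131, authors' deposited table). For gst-1 the values were 646 ± 54.4 and 226 ± 27.3 (adjusted p = 0.0898, authors' deposited table), and larvae fed for 15 h had 633 ± 43.9. After 3 h of food, refed larvae and larvae fed from hatching had gst-24 at 920.0 and 414 and gst-4 at 574 and 201. Most members went the other way: 28 of 41 had a lower value in refed larvae and 13 a higher one. The median was -0.32 log2, against 0 for all probe sets. Age and hybridization day also differ between these larvae. In that comparison the authors' p called 0 members and 0% of probe sets, with 3 higher and 9 lower unadjusted (against 9.84% of all probe sets), and the test from the deposited errors called 0 as well.

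Taking food away gave no call. Food-removed arrays were hybridized on another day than those of fed larvae, so the day and removal cannot be told apart here. Against larvae fed for 15 h and for 12 h, the authors' p called 0 members (against 0.00443% of all probe sets, 0% higher and 0.00443% lower, and 0.0266% of all probe sets, 0.00887% higher and 0.0177% lower), and the test from the deposited errors called 0 in both. At an unadjusted p under 0.05 there were 7 and 9 members, against 9.7% and 16.4% of all probe sets. Against larvae fed for 15 h, 31 of 41 members had a lower value after removal and 8 a higher one, with a median of -0.28 log2. Against larvae fed for 12 h, 23 were lower and 15 higher, with a median of -0.18. The median of all probe sets was 0 in both. The value of gst-24 was 14.7 ± 6.13, not detected, after removal and 87 ± 15.7 with food throughout (adjusted p = 0.467, authors' deposited table). That of gst-3 was 29.2 ± 4.77, against 20.1 ± 3.92, not detected, in larvae fed for 15 h. Newly hatched larvae starved for 3 h had gst-3 at 137 ± 10.3. Against those newly hatched larvae, food-removed larvae had 8 members lower and 0 higher (19.5%, against 6% of all probe sets, 3.06% higher and 2.93% lower; authors' p), namely gst-4, gst-6, gst-12, gst-16, gst-19, gst-20, gst-24 and gst-42. The largest differences were those of gst-12, 9.93 ± 6.25 against 205 ± 31.8, and gst-16, 19.7 ± 6.17 against 177 ± 19.8. Next were gst-24, 14.7 ± 6.13 against 132 ± 17.9, and gst-20, 271 ± 27.8 against 1499 ± 105. After removal gst-12, gst-16 and gst-24 were not detected, so the sizes of their differences are only approximate. The test from the deposited errors called 0 of them, and the compared animals also differ in age, earlier feeding and hybridization day.

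Refed and food-removed larvae were of the same age and shared a hybridization day, so the day does not differ between them. They do differ in whether they had food or were in L1 arrest in the first 12 h. Earlier feeding, development and present feeding therefore cannot be told apart here. The deposited table lacks this pair, and the test from the deposited errors called 3 members higher after refeeding and 0 lower (7.32%, against 4.48% of all probe sets, 2.22% higher and 2.26% lower). These were gst-24, gst-4 and gst-21. In refed and food-removed larvae gst-24 was at 920.0 and 14.7 (about 45.3-fold, adjusted p = 0.0448) and gst-4 at 574 and 149.5 (3.84-fold, adjusted p = 0.0448). For gst-21 the values were 149.8 and 21.1 (about 7.09-fold, adjusted p = 0.0488). After removal gst-24 and gst-21 were not detected. For gst-10 the values were 748 ± 55.9 and 365 ± 30.4 (adjusted p = 0.0585), and for gst-38, lower after refeeding, 72.5 ± 8.62 and 183 ± 14.7 (adjusted p = 0.0535).

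**Figure D5:**
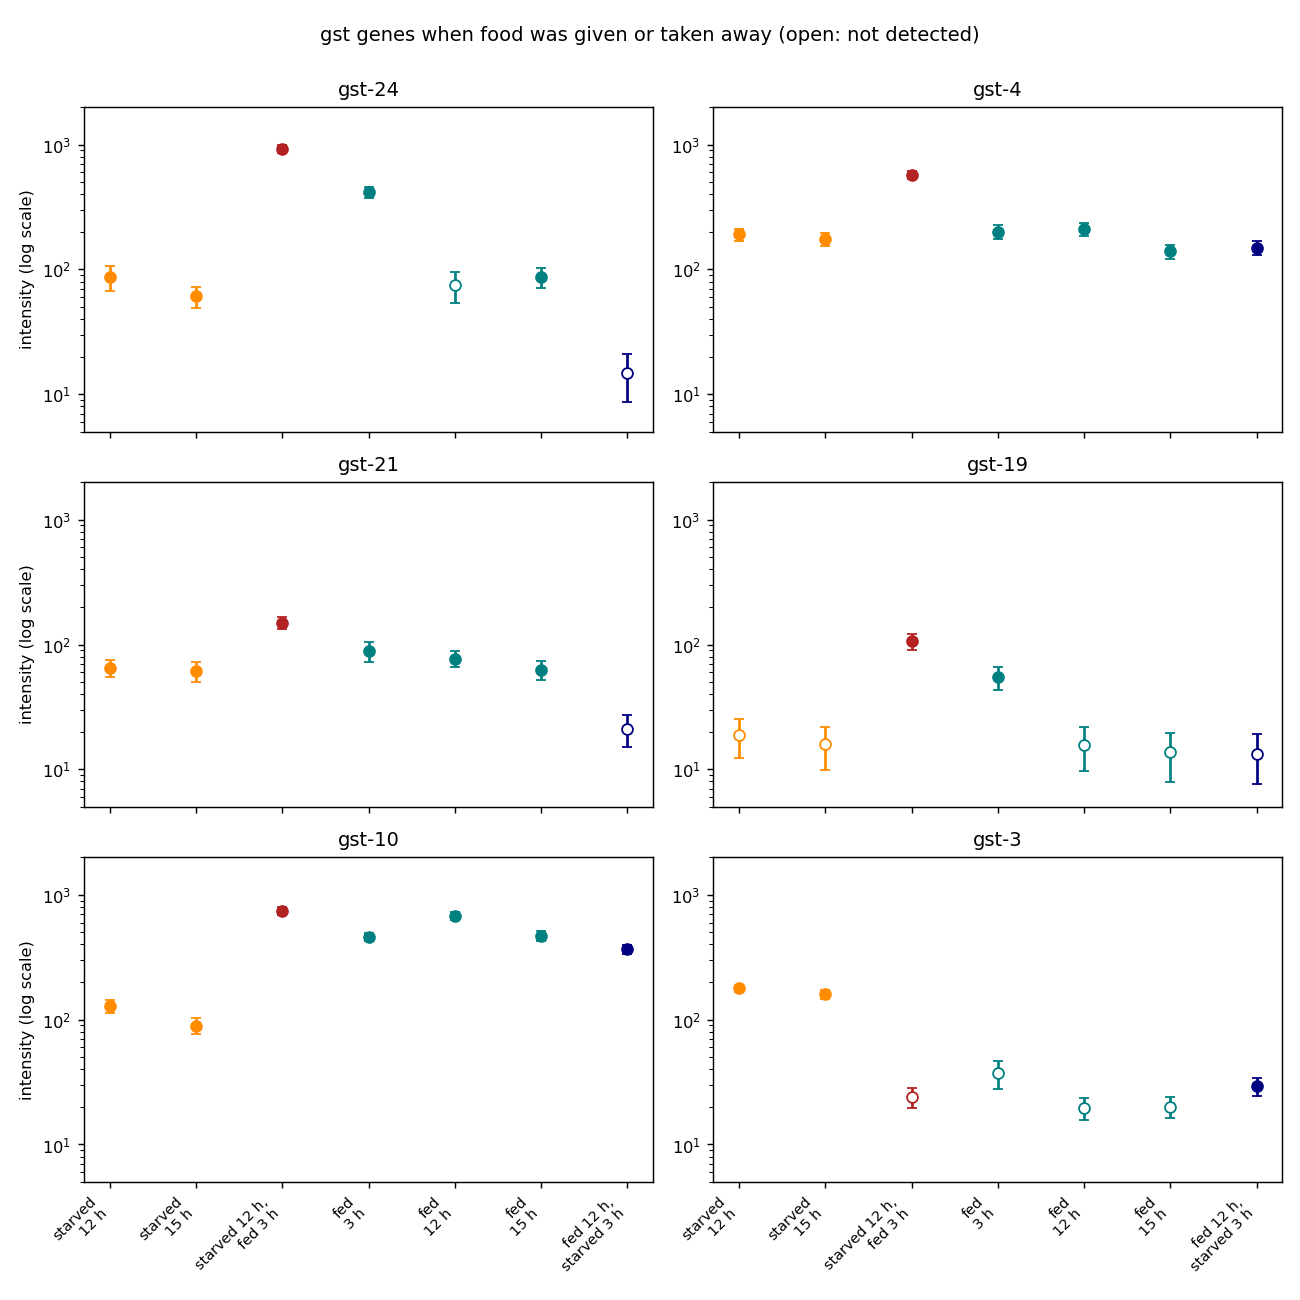
Intensity (log axis) of 6 gst genes in larvae starved for 12 and 15 h (orange), refed (red), fed for 3, 12 and 15 h (teal) and with food removed (blue); bars are the authors' deposited errors and open symbols mark conditions without detection. After refeeding gst-24, gst-4, gst-19, gst-21 and gst-10 have the highest value of the conditions shown, while gst-3 lies below its starved values.

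No member was called between the media, whose arrays were hybridized on different days. For starved larvae at 3 h in M9 and in S-complete the authors' p called 0 members and 0% of probe sets, 2 members had an unadjusted p under 0.05 (against 3.18% of all probe sets), and the test from the deposited errors called 0. The value of gst-4 was 179 ± 30 in M9 and 385 ± 33.7 in S-complete (unadjusted p = 0.201, authors' deposited table). Fed and M9 arrays share their hybridization days, so fed larvae at 3 h can be set against M9 larvae without the day. Food and medium cannot be told apart in this comparison, since the fed larvae were in S-complete. The test from the deposited errors called 0 members and 0% of probe sets there, with 3 members higher and 7 lower unadjusted, against 16% of all probe sets. Side by side with the difference from S-complete, which shares the fed condition, gst-3 had -1.49 against M9 and -1.88 against S-complete on the log2 scale. For gst-20 these were -1.38 and -1.62, for gst-24 1.84 and 1.65, and for gst-4 0.16 and -0.94. Between these 2 comparisons the medium and the hybridization day of the starved larvae cannot be told apart.

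Further members given with values were not called over the 7 times. In fed larvae gst-7 was 358, 517 and 956 and in starved larvae 462, 699.5 and 803 (lowest, median, highest), with a difference of -0.26 ± 0.19 log2 (limma adjusted p = 0.359). Similarly gst-36 differed by -0.04 ± 0.14 (limma adjusted p = 0.875), with fed values of 349, 417 and 540.2 and starved values of 309, 466 and 557. For gst-5, another member linked to hydroxynonenal in worms, the difference was 0.58 ± 0.27 (limma adjusted p = 0.153): its fed values were 396, 503 and 679.8 and its starved values 175, 348 and 586, the lowest of them at 15 h. The difference of gst-13 was 0.26 ± 0.29 (limma adjusted p = 0.552), lower with food at 0 to 6 h and higher from 12 h. The values of gst-8 were 6.63 to 25.9 over all 18 conditions, without detection.

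Around the family, a list of 57 genes for glutathione synthesis, other transferase classes, thioredoxin, glutaredoxin and peroxidases, glyoxalases, conjugate export and regulators had 56 genes measured. Over the 7 times limma called 9 of them higher and 11 lower with food, with a median of 0.09 log2, against 30.3% of all probe sets called (13.5% higher and 16.8% lower). The same shares are the background of the smaller lists and of the markers. In glutathione synthesis 2 of 7 genes were higher, among them cth-1 (cystathionine gamma-lyase, 1.34). Of 19 thioredoxin, glutaredoxin and peroxidase genes 2 were higher and 3 lower, including the glutathione peroxidases gpx-1 (0.87), gpx-6 (-2.15) and gpx-7 (-1.01). Of 6 genes of other transferase classes gstk-2 (kappa class, -1.53) was lower, and of 3 glyoxalase genes 1 was lower. Of 8 conjugate exporters 2 were higher, among them mrp-4 (0.84). Of 13 regulators 3 were higher: nhr-86 (0.48), skn-1 (0.44) and pha-4 (0.27). The 6 lower ones were mxl-2 (-0.80), daf-16 (-0.66), wdr-23 (-0.65), nsy-1 (-0.65), pmk-1 (-0.29) and xrep-4 (-0.27). These regulators were named after their values were seen. So was gcs-1, the rate-limiting enzyme of glutathione synthesis, which differed by 0.13 without a call. In tyrosine breakdown, the pathway of gst-42, 1 of 6 genes, tatn-1 (tyrosine aminotransferase), was called (0.48).

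Marker genes of intestine, epidermis, body wall muscle, neurons, pharynx and germ line were all detected in at least 1 condition. Of 11 intestine markers 3 were higher and 2 lower with food over the 7 times, and their summed intensity was 13301 to 16692.5 in fed and 8936.5 to 16917.8 in starved larvae. Of 7 epidermis markers 2 were higher and 1 lower, with sums of 706 to 2696 in fed and 718 to 969 in starved larvae. In the other lists the counts were 0 higher and 3 lower of 8 for muscle, 0 and 2 of 7 for neurons, 2 and 0 of 6 for pharynx, and 3 and 0 of 5 for germ line. Their sums in fed and starved larvae were 14336.9 to 23078.8 and 16241 to 24808.6 for muscle, 2118 to 3659 and 3394 to 4072 for neurons, 1121 to 2731 and 871 to 2648 for pharynx, and 193 to 653 and 141 to 294 for germ line. None of these markers was at the floor in all conditions. Their part in the differences of the gst genes was not tested.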

How the data were processed

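Each condition is 1 sample, and the values are those the authors deposited: per the file headers and labels, the intensity of a probe set is the mean of 3 arrays on a linear scale with a floor of 5, with a deposited error of unstated type. The authors' detection score is a p, called at under 1e-10. The authors' p-values come from their deposited analysis of variance and pairwise tests. No source used here names the array software or normalization, and the number of arrays limits the precision. What spread the authors' p-values measure is therefore not known beyond the deposited replicates.

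From these values 77 control probe sets were removed. The fed minus starved difference over 7 times, and its slope on log2(h + 1), were fitted with limma 3.58.1 (R 4.3.3) to log2 means of 14 conditions, with no pseudocount, and tested on simulated data. For single pairs the authors' deposited p-values were taken or, where the deposited table lacks the pair, the difference of linear means over the combined deposited errors with 4 degrees of freedom. That test assumes that the deposited error is a standard error, so calls resting on it alone depend on this. The p were adjusted with Benjamini-Hochberg over 22548 worm probe sets, or over those the deposited table holds (22055 for the food term and 22040 for the food by time term of the analysis of variance), with a threshold of 0.05. Alternatives were a pseudocount of 16, quantile normalization, detected probe sets only, an intensity trend, no time factor and each time left out. Names came from the deposited WormBase mapping, and chromosomes and neighbours from the RefSeq table (WBcel235). Full values are given for the 12 largest differences past the threshold over 7 times, the 8 members with the highest mean, at most 4 members past the threshold per pair, and gst-1, gst-4, gst-5, gst-7, gst-8, gst-10, gst-13, gst-24, gst-38 and gst-42. Other members and list genes given with values were chosen after their values were seen, except the 6 list genes with the largest called differences. The members and gene lists were chosen with earlier results of these data known. Comparisons of refed with food-removed larvae, of refed with 3 h fed larvae, of food-removed with 3 h starved larvae and of fed with M9 larvae were added after seeing the data. Sequences were not used here.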

Additional observations from a re-analysis of the deposited data

Results flagged for a closer look

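In 5 members the fed minus starved difference changed with time by the test of its slope on log2(h + 1), which is a test of the difference between times itself. In limma's fit the slope was 0.353 for gst-1, -0.583 for gst-3, 1.01 for gst-10, 0.446 for gst-26 and 0.374 for gst-42, in log2 units per doubling of h + 1. At the first time the fed value was the lower one in all 5, and at 24 h it was the higher one in all but gst-3. Hybridization days differ between fed and starved larvae but not between times of 1 course. Fed larvae are labelled as between L1 and L2 at 15 h and as L2 at 24 h, so stage and food cannot be told apart at these times.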

How the results depend on the processing

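No paired analysis was possible because each condition is 1 deposited mean and its columns carry no replicate number. Leaving out single arrays was not possible for the same reason. The count of members called over 7 times was 8 to 14 with 1 time left out and 38 (16 higher, 22 lower) by the food term of the authors' analysis of variance. The count for the slope was 1 to 4 with 1 time left out and 36 (19 higher, 17 lower) by the food by time term. That term gives no direction, so higher and lower here follow the sign of limma's slope. It called 54.7% of all probe sets and was an alternative chosen after seeing the data. With p adjusted over detected probe sets only, the counts were 3 at 3 h, 2 at 6 h, 5 at 15 h, 5 for refed against 15 h starved, 6 for refed against 12 h starved, 8 from embryo to starved 0 h, 13 and 4 from 0 to 24 h in starved and fed larvae, and 7 for refed against food removed. Over all probe sets that setting called 971, 1790, 2363, 1472, 2032, 1891, 1907, 2674 and 2783 in the same order. The test from the deposited errors gave 4 at 12 h, 4 for refed against 12 h starved and 0 for food removed against 3 h starved, with 2166, 1175 and 0 over all probe sets. In the fed minus starved difference over 7 times, 2 genes near 0 reversed: gst-36 was 0.048 without 3 h and 0.020 without 6 h, within a range down to -0.133, and gst-42 was -0.019 without 12 h and -0.078 without 24 h, within a range up to 0.219. With no time factor gst-15, gst-16, gst-20 and gst-38 lost their calls (limma adjusted p = 0.0766, 0.295, 0.0770 and 0.213), and with a pseudocount of 16 so did gst-16 (0.0536). As a slope on hours gst-1, gst-26 and gst-42 lost theirs (0.106, 0.0519 and 0.0570), while 7 members in all were called, 5 higher and 2 lower. The causes were not tested. Levels near the lowest detected intensity limit the dim members: where the lower level was not detected, their folds are only approximate.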
